A study of Mus musculus with 4 samples.

Results

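The matrix metalloproteinases (Mmp), the membrane-bound Adam proteases, the secreted Adamts proteases and their tissue inhibitors (Timp) were examined in mouse embryonic fibroblasts, cells grown out of mouse embryos. Members were all probe sets of the Affymetrix MOE430A array whose single gene symbol in GEO's platform annotation is Mmp, Adam, Adamts or Timp followed by a digit. This gave 83 probe sets of 54 genes, out of 22626 probe sets that are not controls and 12393 genes with a single symbol. They comprised 18 Mmp, 25 Adam, 7 Adamts and 4 Timp genes. A probe set is a group of short probes that together give 1 signal for a transcript, in arbitrary units. RNA of 4 samples was hybridised, 1 array each. All 4 samples had received a retrovirus made from the pBabePuro vector, which was empty in the 2 control samples and carried mTert in the 2 mTert samples; mTert encodes the reverse transcriptase subunit of mouse telomerase. The samples of each group are titled 1 and 2. The labels give no age, strain or culture of origin, so the spread behind each p-value is that between these samples and may be technical.

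Mmp enzymes cut collagens, fibronectin and proteoglycans of the extracellular matrix. They are made as inactive proenzymes, either secreted or, as with Mmp14, held in the plasma membrane. Adam proteases are mostly membrane proteins that release the outer part of growth factors, receptors and adhesion molecules, although many Adam genes are active only in testis. Adamts enzymes are secreted and carry thrombospondin repeats, and several of them cut the proteoglycans aggrecan and versican. Timp proteins bind the active site of these enzymes, and fibroblasts are a main source of both enzymes and inhibitors in connective tissue. Many secreted Mmp genes are known as targets of AP-1, the dimer of Fos and Jun proteins that growth factors and cytokines induce.

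Each array had between 11681 and 12298 probe sets called present, or between 51.6% and 54.4%. The instrument records list 5 µg of cRNA for control 1, against 15 µg on the remaining arrays. The probe set of Tert read 128.0 and 84.7 in the controls, both called absent, and 1164.5 and 845.4 in the mTert samples, both called present. All 13 genes of a fibroblast marker list, such as Col1a1, Pdgfra and Thy1, were present on all 4 arrays. Of the markers of other cells, 5 of 7 endothelial genes, 4 of 6 epithelial genes and 4 of 6 muscle genes were not called present on any array. The same held for 4 of 8 chondrocyte and osteoblast genes, whereas Sox9, Sp7, Acan and Comp were present on at least 2 arrays. Of 16 macrophage genes, 8 were present on each array titled 1 and 14 on each array titled 2. In a bulk sample, fewer cells of a type and less RNA per cell cannot be told apart.

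Of the 54 genes, 23 were called present on at least 2 of the 4 arrays by at least 1 probe set, 20 on all 4 arrays and 28 on none. At the level of probe sets 41 of 83 were present on at least 2 arrays, a share of 49.4%, near the 54.8% of all probe sets on the array. These 41 are the ones tested below, and the other 42 have no test. Signals of different probe sets depend on their probes, so the values below rank arrays within a probe set and not genes against each other.

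All 4 inhibitor genes were present on all arrays. Timp1 had 1872 and 1566.5 in control 1 and 2 and 2212 and 2325 in mTert 1 and 2. Timp2 was read by 6 probe sets, of which 5 were present everywhere and 1 was absent with signals of at most 13.8. Timp3 was present by all 4 of its probe sets. Timp4 was present by 1 of 2 probe sets, with weak signals between 42.9 and 67.0.

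Among Mmp genes, 7 of 18 were present on at least 2 arrays: Mmp2, Mmp3, Mmp11, Mmp14, Mmp16, Mmp19 and Mmp23. Mmp2 is the gelatinase that Mmp14 activates at the cell surface. The brighter Mmp2 probe set had signals of 5333, 5978, 5990 and 5638 on control 1, control 2, mTert 1 and mTert 2. For Mmp14 the values in the same order were 5278, 5338, 5432 and 5079. These signals lay within a narrow band, and the groups overlapped in both genes. Mmp3, the stromelysin that activates other proenzymes, stood near the limit of detection, with signals of 116, 200, 146 and 192.5 and an absent call on mTert 2. Mmp23 was present on all arrays by 1 of 2 probe sets, with 667.5, 754, 817 and 504.

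Mmp7, Mmp8, Mmp9, Mmp10, Mmp12 and Mmp20 were absent on all 4 arrays. Mmp9 is the second gelatinase, made chiefly by leukocytes, and Mmp12 is the elastase of macrophages. Their probe sets read 91.9 to 178 and 14.6 to 39.3 for Mmp9 and 4.0 to 9.5 for Mmp12. Mmp13, the main interstitial collagenase of mice, was present only on mTert 2, at 21.1, although its signal in control 2 was 27.4. Mmp1a was present only on control 1, at 67.5. Mmp1b read 9.9 to 33.4 and Mmp17 45.1 to 89.8 without a present call, and Mmp24 was marginal on both mTert arrays by 1 of 2 probe sets, at 108 and 122.0. The single calls of Mmp13 and Mmp1a rest on signals that other arrays reached or nearly reached without a present call.

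Of the Adam genes 8 of 25 were present on at least 2 arrays: Adam1a, Adam8, Adam9, Adam10, Adam12, Adam15, Adam17 and Adam19. Adam8 was present only on the 2 arrays titled 2, those with more macrophage genes present. Adam10 and Adam17 are the main sheddases, which release Notch receptors and ligands of the EGF receptor. The brightest Adam10 probe set read 1658 and 1434 in control and 1809.5 and 1769 in mTert. Adam9 read 1903, 1600, 1672 and 1770 in the order given above. Adam2, Adam3, Adam5, Adam7, Adam18, Adam24, Adam25 and Adam26a were absent throughout, with signals of at most 72.7. Adam1b, Adam4, Adam11, Adam21, Adam22, Adam23, Adam28 and Adam34 were not called present on any array either, with marginal calls of Adam4 and Adam28 on mTert 1. Adam4 had the highest signals of them, from 416 in control 1 to 677.5 in control 2, and Adam1b reached 255.0 in mTert 1. Adam33 was present only on mTert 1, at 404.5, while control 2 had 404.0 without a present call.

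Of the Adamts genes 4 of 7 were present, all on 4 arrays: Adamts1, Adamts4, Adamts5 and Adamts10. Adamts4 and Adamts5 are the aggrecanases of cartilage. Adamts1 read 3832, 4635, 3328 and 4443 on control 1, control 2, mTert 1 and mTert 2. Both arrays titled 2 were thus above both arrays titled 1. Adamts7, Adamts8 and Adamts15 were absent on all arrays, with signals of at most 126.

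**Figure D1:**
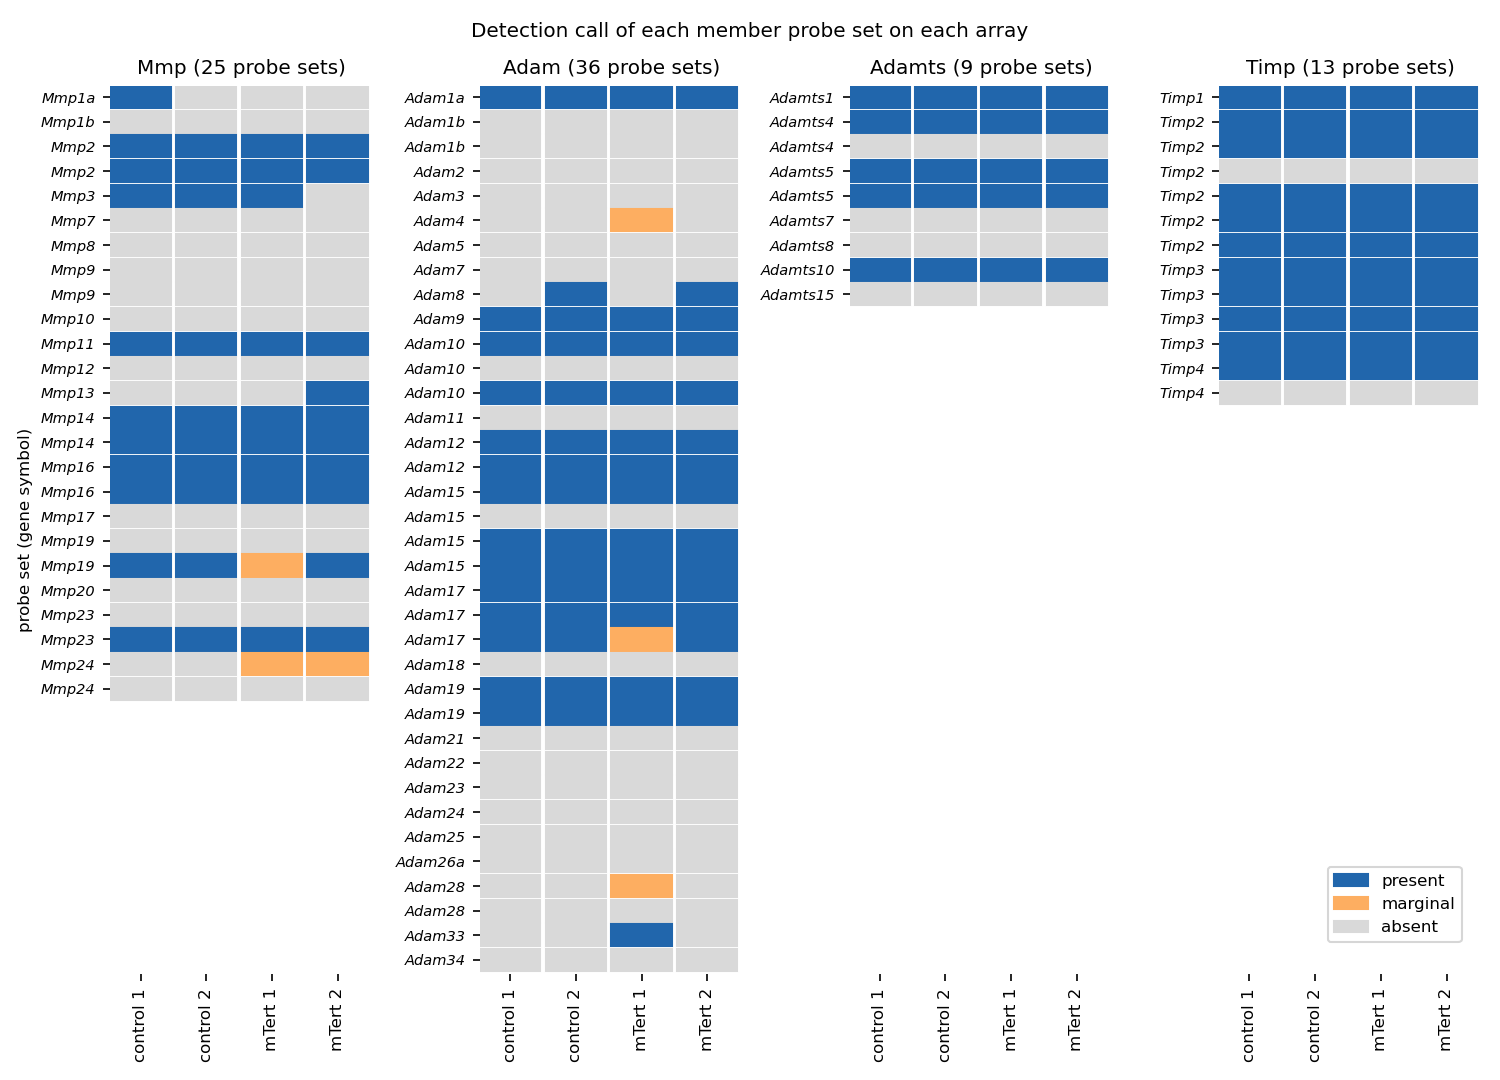
The authors' detection call of each of the 83 member probe sets (rows, by gene) on each of the 4 arrays (columns), in blue where present, orange where marginal and grey where absent. Every Timp gene is present on all arrays by at least 1 probe set, 16 of 25 Adam genes are absent or marginal on every array, and Adam8 is present on the arrays titled 2 and absent on those titled 1.

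The sequence before the start of the genes was searched for letters tied to inducible and to broadly active promoters. The 250 bases before the start were read from RefSeq promoter windows of the mouse build GRCm38.p6 for the 30 member genes that matched by symbol. The letters TGANTCA, the consensus bound by AP-1, which read the same on both strands, were found in at least 1 window of 10 of these 30 genes. Of all 27025 genes with a window, 7.82% had them, as did 6.75% of all windows. They occurred in 8 of 9 Mmp genes of chromosome 9, a group of neighbouring genes with Mmp8 as the exception, and in 2 of 21 other members, Adam19 and Adam25. Of the 9 genes, 6 were absent on every array, Mmp13 and Mmp1a were present on 1 array and Mmp3 on 3. The group was formed after the matches were seen, and the count is a description without a test. The last 100 bases before the start of 5 of them are printed to show where the match lies, in capitals.

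Mmp13: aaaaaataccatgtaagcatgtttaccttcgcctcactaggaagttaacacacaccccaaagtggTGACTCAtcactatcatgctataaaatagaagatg
Mmp3: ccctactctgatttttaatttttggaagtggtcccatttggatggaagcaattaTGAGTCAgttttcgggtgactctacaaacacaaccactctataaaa
Mmp1a: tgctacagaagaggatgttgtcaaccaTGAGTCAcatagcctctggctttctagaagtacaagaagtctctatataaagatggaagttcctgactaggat
Mmp10: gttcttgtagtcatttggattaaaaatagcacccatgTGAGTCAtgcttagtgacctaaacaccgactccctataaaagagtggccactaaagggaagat
Mmp7: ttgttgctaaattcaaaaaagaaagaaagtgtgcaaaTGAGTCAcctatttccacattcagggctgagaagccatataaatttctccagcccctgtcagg

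These lie on the plus strand at chr9:7272414-7272513 for Mmp13, chr9:7445722-7445821 for Mmp3, chr9:7464041-7464140 for Mmp1a, chr9:7502242-7502341 for Mmp10 and chr9:7691990-7692089 for Mmp7. The first base of the match lay at -35, -46, -73, -63 and -63 from the start in that order. A second set of letters, GGGCGG on either strand, the core of the GC box, was found in 11 of the 30 genes, beside 35.4% of all genes and 32.7% of all windows. None of the 9 Mmp genes of chromosome 9 had it. Of the 15 matched genes present on at least 2 arrays 10 had it, and of the 15 others 1 did, Mmp24. The others include the Mmp genes of chromosome 9 except Mmp3. The same split by calls was not made over all genes, so the counts are a description. The windows of Timp1 and Adam8, the members with the smallest p in the comparisons below, are printed whole with this match in capitals.

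Timp1: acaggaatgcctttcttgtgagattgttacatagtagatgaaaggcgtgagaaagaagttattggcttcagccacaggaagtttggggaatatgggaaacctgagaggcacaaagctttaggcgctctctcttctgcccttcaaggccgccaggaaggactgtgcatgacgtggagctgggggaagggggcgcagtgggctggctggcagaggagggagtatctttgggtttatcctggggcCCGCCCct
Adam8: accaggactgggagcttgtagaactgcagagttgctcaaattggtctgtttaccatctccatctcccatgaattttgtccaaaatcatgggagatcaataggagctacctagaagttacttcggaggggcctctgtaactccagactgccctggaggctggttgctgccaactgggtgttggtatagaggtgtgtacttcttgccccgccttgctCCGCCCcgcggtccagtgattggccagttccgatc

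The Adam8 window belongs to a transcript start that lies inside the span RefSeq gives for the gene, not at the outer end of that span. The Timp1 window is chrX:20869916-20870165 on the plus strand and the Adam8 window chr7:139992563-139992812 on the minus strand. The match begins at -8 in Timp1 and at -35 in Adam8, and TGANTCA was in neither window. A match is a description of these letters and not a measured binding site.

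Carriers of mTert were first set against controls, to see which members differ between fibroblasts given the mTert retrovirus and those given the empty vector. Differences are log2 values, mTert minus control, from limma, a linear model fitted over all 12396 probe sets tested, each with its standard error (SE), and p-values are adjusted over all 12396. No member passed an adjusted p of 0.05, which 0% of all probe sets did. The smallest limma adjusted p of all probe sets was 0.188, so the probe set of Tert itself was not called either. A member without a call is therefore not shown to be unchanged. Before adjustment 2 of 41 members had a limma p under 0.05, a share of 4.88% beside 2.11% (261) of all probe sets. The median difference of the members was 0.006 (quartiles -0.03 and 0.11), beside 0.006 over all probe sets (quartiles -0.09 and 0.11). Of the members 23 of 41, or 56.1%, lay above 0, beside 51.8% of all. Both mTert signals lay above both control signals in 6 members (14.6%, beside 13.4% of all probe sets) and below in 4 (9.76%, beside 12.1%), together 24.4% beside 25.5%. No member differed by 0.5 or more, as 2.29% of all probe sets did. These shares lay close to those of the whole array.

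The inhibitor Timp1, which binds most Mmp enzymes and also promotes cell growth, had the smallest p of all members. Its mean signal was 1719 ± 216 in control and 2269 ± 80.0 in mTert (SD, n = 2), a difference of 0.41 (SE 0.12, 95% interval 0.11 to 0.70). Both mTert arrays were above both controls, by 0.24 between the arrays titled 1 and by 0.57 between those titled 2. The limma p was 0.016 before and 1.00 after adjustment, so the difference was not called. With 1 array left out the difference was between 0.28, without control 2, and 0.53, without control 1, the array with less cRNA.

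Timp2, the inhibitor that also takes part in the activation of Mmp2 by Mmp14, had differences between -0.05 and 0.00 over its 5 tested probe sets. The interval of the probe set with the highest mean signal ran from -0.20 to 0.21. Timp3, which binds to the matrix and also inhibits Adam17, had differences between -0.005 and 0.10 over 4 probe sets. Timp4 stood at 0.41 (SE 0.32), with an interval from -0.38 to 1.19.

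Adamts4 was the other member with an unadjusted p under 0.05. Its signals were 377 and 353 in control and 457 and 486.5 in mTert. The difference was 0.37 (SE 0.15, interval 0.01 to 0.73), the limma p 0.045 before and 1.00 after adjustment. The groups did not overlap in this probe set, whereas its other probe set was absent on all arrays. Adamts5 was read by 2 probe sets that did not move together. The dimmer one did not pass the test at -0.20 (SE 0.12), with 1003 and 930 in control and 867 and 817 in mTert. The brighter one stood at 0.00 (SE 0.16), with overlapping groups. Adamts1 stood at -0.13 (SE 0.16) and Adamts10 at 0.11 (SE 0.18).

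No matrix metalloproteinase passed the test. Mmp2 stood at 0.04 (SE 0.09, interval -0.18 to 0.26) and Mmp14 at -0.02 (SE 0.08, interval -0.21 to 0.18) by their brighter probe sets. The groups overlapped in both. Mmp19, a secreted proteinase, had the largest difference among Mmp genes at -0.40 (SE 0.27), with 137 and 145 in control and 88.2 and 128 in mTert. Its mTert 1 signal was called marginal. Mmp3 stood at 0.14 (SE 0.32) and Mmp23 at -0.15 (SE 0.24), each with overlapping groups. Mmp11, known from the stroma of tumours, and the membrane-bound Mmp16 stood between -0.03 and 0.12 over 3 probe sets.

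Among the Adam proteases the smallest p was that of Adam10, at 0.21 (SE 0.12, interval -0.07 to 0.50), with both mTert arrays above both controls. Its other tested probe set stood at 0.01. All 3 probe sets of Adam17 were lower in sign, between -0.20 and -0.02, and in 1 of them both mTert signals lay below both controls. The brightest Adam15 probe set stood at 0.16 (SE 0.13) and Adam9 at -0.02 (SE 0.12). Adam1a, Adam12, Adam19 and the other Adam15 probe sets stood between -0.17 and 0.12. Of the 11 genes with several tested probe sets, 7 had all of them on one side of 0 and 4 did not.

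**Figure D2:**
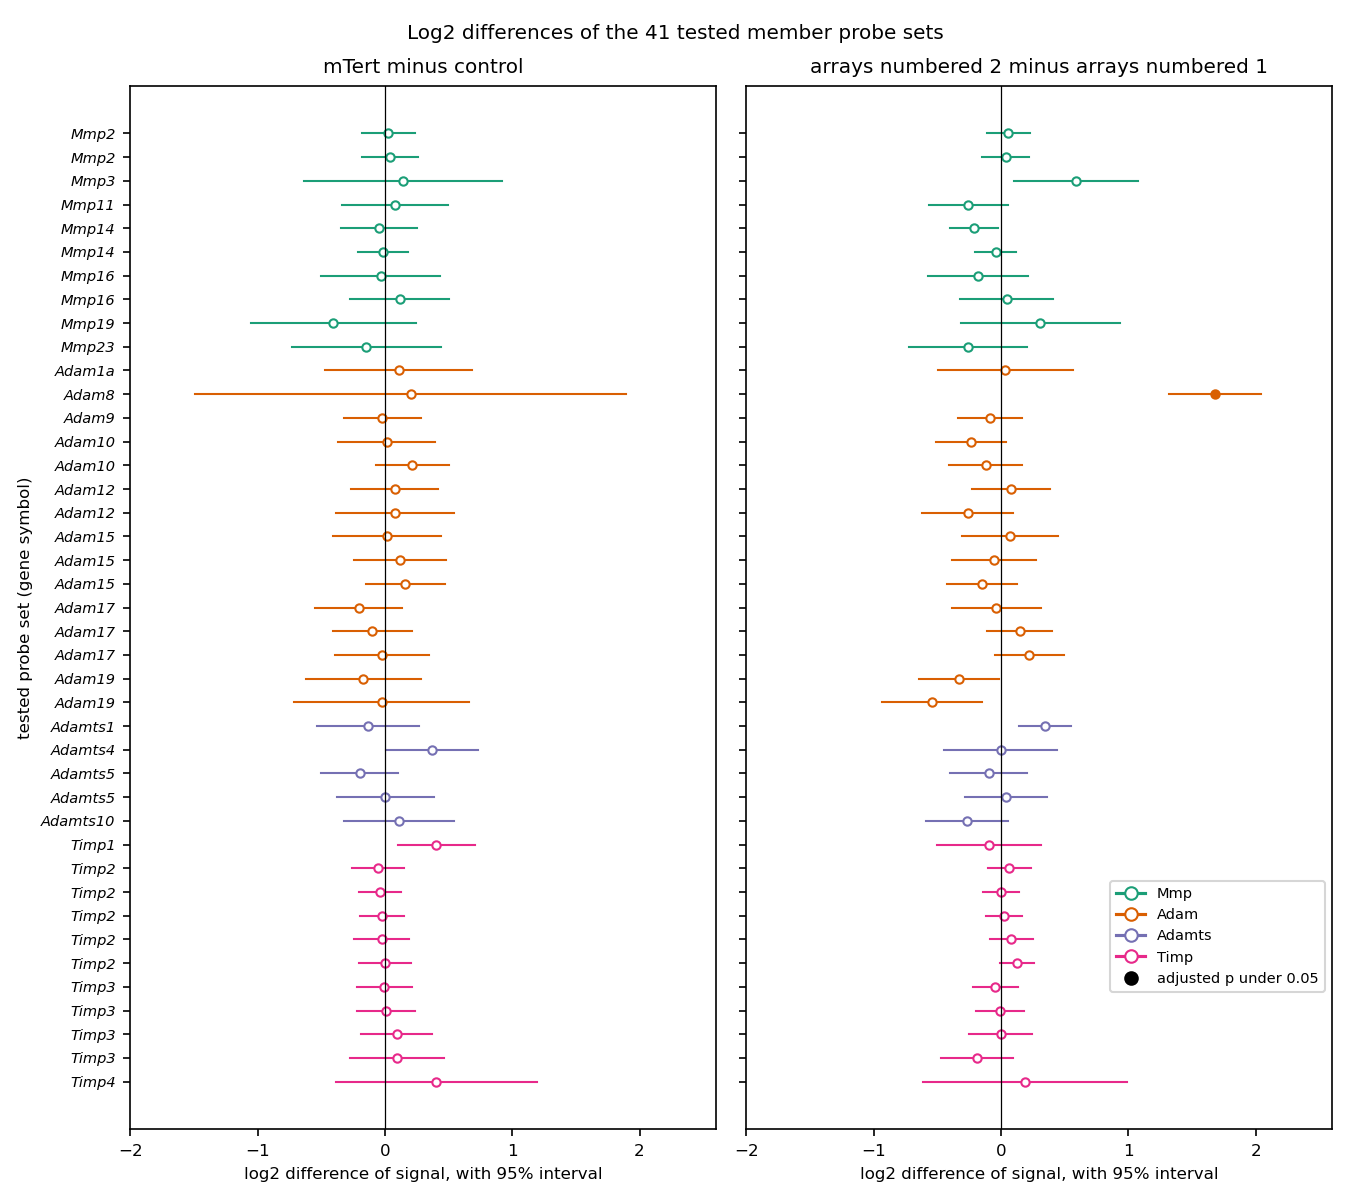
Log2 difference of each of the 41 tested member probe sets (circles) with its 95% limma interval (lines), for mTert minus control on the left and for arrays titled 2 minus arrays titled 1 on the right. Filled circles mark an adjusted p under 0.05, which Adam8 alone reached, in the comparison on the right.

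Other genes of the system were taken from lists chosen with earlier results of these data known, read by 1 probe set per gene. Of 13 tested regulators, such as the membrane inhibitor Reck, the proenzyme convertase Furin and the clearance receptor Lrp1, 9 were higher and 4 lower in sign in mTert, with a median of 0.04 and 0 called. Pcsk5, a convertase, had the smallest p of them at 0.51 (SE 0.24), without passing the test. Of 19 tested substrates of Adam shedding, 9 were higher and 10 lower, with a median of -0.01 and 0 called. Hbegf, a ligand of the EGF receptor shed by Adam17, had the smallest p at -0.86 (SE 0.20, limma adjusted p = 1.00), with 4196 and 3988 in control and 2794 and 1824 in mTert. Mertk, a receptor shed by Adam17, stood at -0.54 (SE 0.16). Of 16 tested matrix substrates 6 were higher and 10 lower, with a median of -0.02 and 0 called.

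Of 10 tested AP-1 members and related inducers of Mmp genes, 8 were lower in sign in mTert and 2 higher, with a median of -0.28 and 0 called. Both mTert signals were below both controls in 6 of them, beside 12.1% of all probe sets, and 51.8% of all probe sets lay above 0. This list too was chosen with earlier results of these data known, so its counts are a description without a test. Junb had the smallest p at -0.86 (SE 0.12, limma adjusted p = 0.942), with 5078 and 5707 in control and 2701 and 3266 in mTert. Fosb stood at -0.63 (SE 0.12) and Egr1 at -0.26 (SE 0.07). Mmp3, the one gene of the chromosome 9 group that was tested, stood at 0.14 (SE 0.32, interval -0.63 to 0.92), with signals near the limit of detection. A link between this list and the members was not tested.

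**Figure D3:**
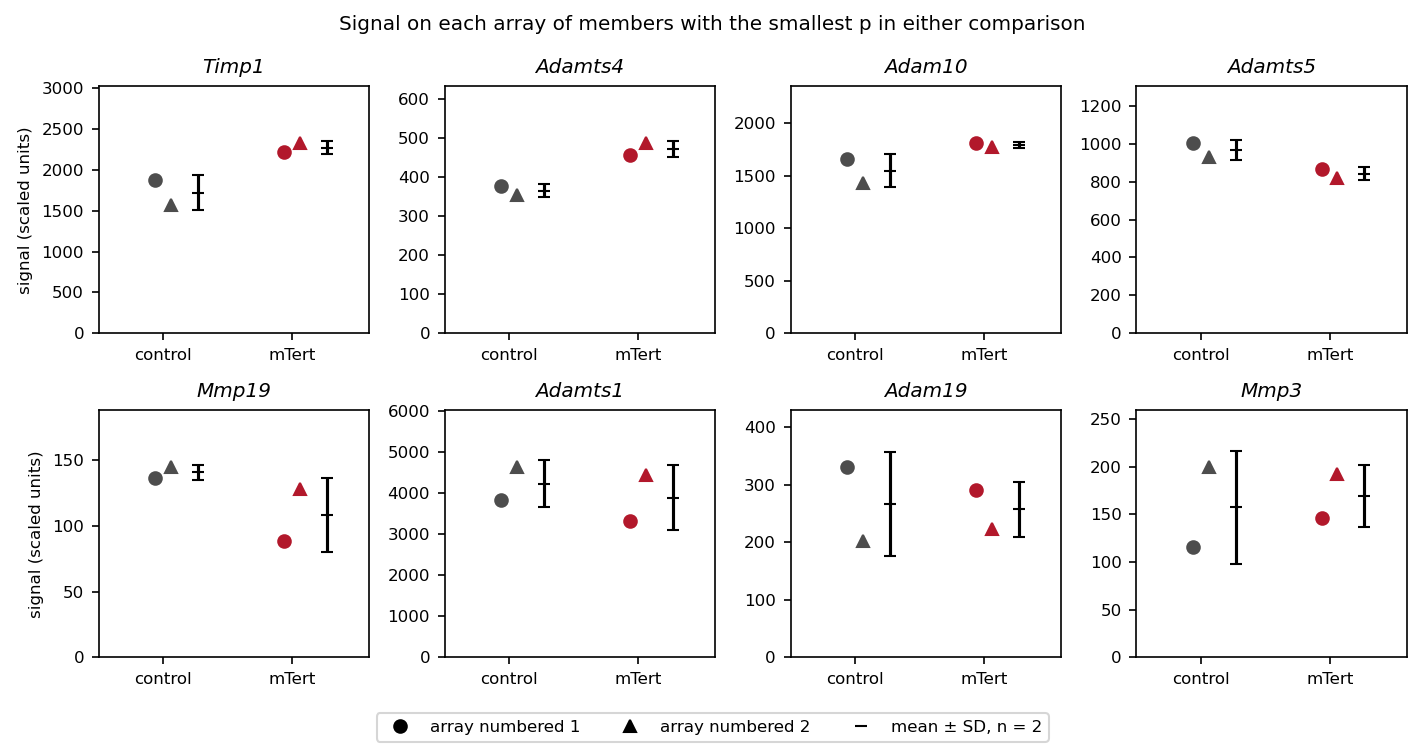
Signal (scaled arbitrary units, axes from 0) of 8 member probe sets with the smallest p in either comparison, by group; circles are arrays titled 1, triangles arrays titled 2, and bars the mean ± SD of 2 arrays. For Adamts5 the dimmer of 2 probe sets and for Adam19 the dimmer of 2 is drawn. Timp1, Adamts4, Adam10, Adamts5 and Mmp19 separate by group, whereas Adamts1, Adam19 and Mmp3 separate by number. These were picked for their small p, and 25.5% of all probe sets separate by group and 39.8% by number.

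The arrays titled 2 were then compared with those titled 1, 1 control and 1 mTert array on each side. The labels do not say what the number marks. Limma called 1.55% of all 12396 probe sets here at an adjusted p of 0.05, with 131 higher (1.06%) and 61 lower (0.492%). Of the 41 members 1 was called, Adam8, a share of 2.44%. Adam8 passed the filter on present calls only through the arrays titled 2, the side on which it was higher, and among probe sets present on all 4 arrays 0 members were called. Before adjustment 6 members had a limma p under 0.05, or 14.6% beside 10.5% of all. The sides did not overlap in 17 members, or 41.5% beside 39.8% of all probe sets. Of these 9 were higher (22.0%, beside 20.3%) and 8 lower (19.5%, beside 19.4%). A difference of 0.5 or more was found in 3 members, or 7.32% beside 6.29%. The median difference was -0.003 over the members and 0.001 over all probe sets, and 43.9% of the members lay above 0, beside 50.2%. Apart from Adam8, the members' shares lay near those of the whole array.

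Adam8, a membrane protease known from leukocytes and osteoclasts, was absent on both arrays titled 1 and present on both titled 2. Its signal was 213 in control 1 and 240 in mTert 1, against 668.5 in control 2 and 786 in mTert 2. The means were 226 ± 18.8 and 727 ± 83.2 (SD, n = 2). The fitted signal was 3.21-fold higher on the arrays titled 2, and on the side titled 1 this rests on signals called absent. The fitted difference was 1.68 (SE 0.16, interval 1.32 to 2.04), with a limma adjusted p of 0.0018. It was 1.65 within the controls and 1.71 within the mTert samples. Between mTert and control the same probe set stood at 0.20 (SE 0.69) with overlapping groups. With each array left out in turn the difference between numbers was 1.57 to 1.80 (limma adjusted p between 0.00045 and 0.029), where 1 side then held a single array that is assumed to vary like the others.

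Macrophage genes moved with Adam8. The 8 genes of the macrophage list that were present on all 4 arrays rose on the arrays titled 2, with a median log2 difference of 1.96 and 8 of 8 called by limma. Another 6, C1qa among them, were absent on both arrays titled 1 and passed the filter only through the arrays titled 2. Their differences of 1.18 to 5.02 thus rest on signals called absent on the side titled 1. Their summed signal over 16 genes was 3662 and 4185 on the arrays titled 1 and 17496 and 18131 on those titled 2. C1qa, a complement subunit, read 39.8 on both arrays titled 1 and 1189 and 1395 on those titled 2. Csf1r, the receptor for macrophage growth factor, read 671 and 691 on the arrays titled 1 and 2192 and 2293 on those titled 2. Itgam and Aif1 were not called present on any array. Mmp12 and Mmp9 were absent on all arrays, those titled 2 included. The median of the same list between mTert and control was 0.11, with 0 called. The part of macrophage RNA in the Adam8 difference was not tested.

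**Figure D4:**
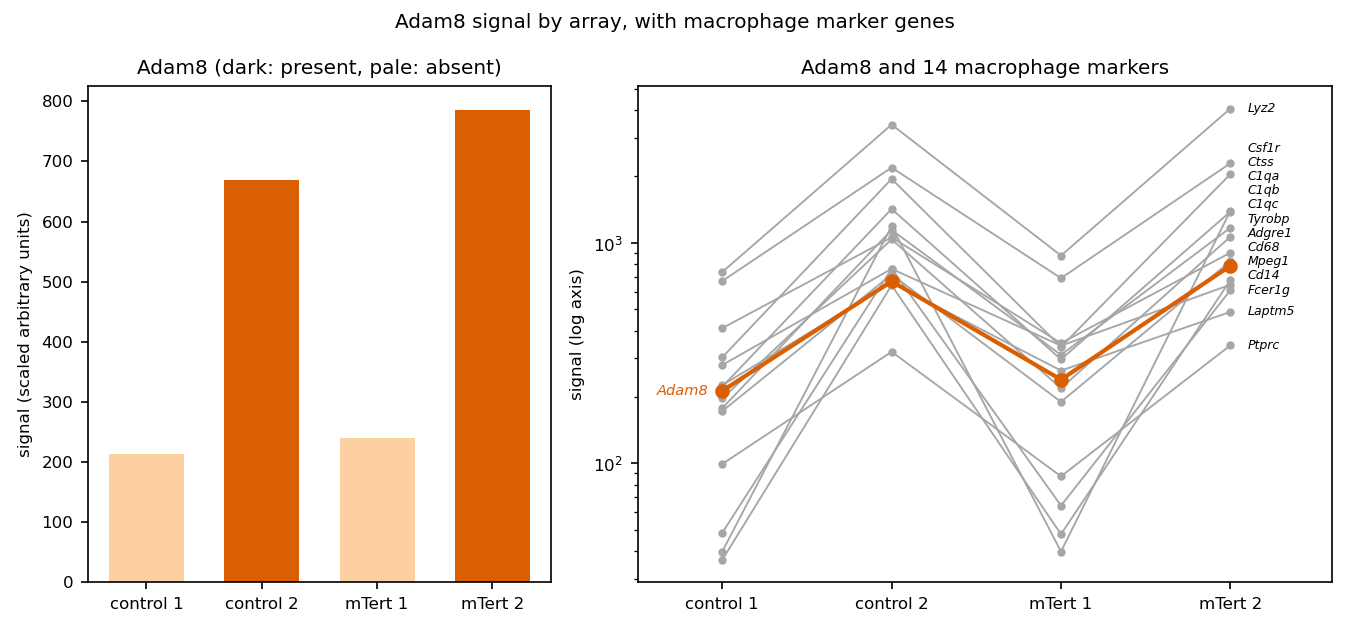
Left, Adam8 signal on each array (bars from 0, dark where called present and pale where absent). Right, the same values in orange with 14 tested macrophage marker genes in grey on a log axis, where lines join the values of 1 gene. All 15 genes are higher on the arrays titled 2 in both groups. Adam8 and 6 of the 14 markers passed the filter on present calls only through those arrays. Itgam and Aif1, not called present on any array, are not drawn.

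No other member passed the test between the numbers. Adamts1, which cuts versican, had the next smallest p, with means of 3580 ± 356 on the arrays titled 1 and 4539 ± 136 on those titled 2. The difference was 0.35 (SE 0.09, limma adjusted p = 0.144), 0.27 within the controls and 0.42 within the mTert samples. Mmp3 stood at 0.59 (SE 0.21, limma adjusted p = 0.329), with 116 and 146 on the arrays titled 1 and 200 and 192.5 on those titled 2. Both were above their counterparts in each group, but for Mmp3 the signals were close to the limit of detection.

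The lower members with a limma p under 0.05 before adjustment were Adam19, which sheds neuregulin, and Mmp14. Adam19 stood at -0.54 (SE 0.17, limma adjusted p = 0.251) and its other probe set at -0.33 (SE 0.14). The former read 330 and 290 on the arrays titled 1 and 203 and 223.5 on those titled 2, without overlap. Mmp14 stood at -0.21 (SE 0.08, limma adjusted p = 0.371) by its dimmer probe set and at -0.04 (SE 0.07) by the brighter one. Timp1, the member nearest to a difference by group, stood at -0.09 (SE 0.18) by number, with overlapping sides. Timp2 stood between -0.0003 and 0.13 over 5 probe sets and Timp3 between -0.19 and -0.003 over 4, while Timp4 stood at 0.19 (SE 0.35). The remaining members were Mmp2, Mmp11, Mmp16, Mmp19 and Mmp23 between -0.26 and 0.31, the other Adam genes between -0.26 and 0.22, and Adamts4, Adamts5 and Adamts10 between -0.26 and 0.04.

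Of the 13 tested regulators 6 were higher and 7 lower in sign on the arrays titled 2. The sides did not overlap in 4 each way, beside 20.3% higher and 19.4% lower of all probe sets. Limma called 0 higher and 1 lower, beside 1.06% and 0.492% of all probe sets. The one that fell was Thbs2, thrombospondin 2, a matricellular protein that promotes uptake of Mmp2 through Lrp1, at -0.61 (SE 0.09, limma adjusted p = 0.019). It read 5452 and 6226 on the arrays titled 1 and 4051 and 3621 on those titled 2. Thbs1 stood at -0.35 (SE 0.08, limma adjusted p = 0.077). Of the 16 matrix substrates 6 were higher and 10 lower in sign, with a median of -0.12. The sides did not overlap in 3 higher and 8 lower ones, and 1 was called each way. Comp, a cartilage matrix protein cut by Adamts enzymes, rose by 1.19 (SE 0.11, limma adjusted p = 0.0020). Tnc, tenascin C, fell by 0.94 (SE 0.16, limma adjusted p = 0.027). Of the 13 fibroblast markers 6 were higher and 7 lower in sign, with a median of -0.04, 0 called higher and 2 called lower. The latter were Thy1 and Fap, at -0.68 (SE 0.09) and -0.94 (SE 0.18), with limma adjusted p of 0.013 and 0.047. Of the shedding substrates 0 of 19 were called, 5 being higher and 14 lower in sign, where 50.2% of all probe sets lay above 0. The AP-1 list had 0 of 10 called and a median of -0.10.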

How the data were processed

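RNA of 4 samples was hybridised to 1 Affymetrix MOE430A array each, and groups and numbers were taken from the sample titles. For every probe set the authors deposited a linear intensity, a present, marginal or absent call and a detection p-value, per the file headers. No source used here names the software. Trimmed means (2% off each end) were 498.593 to 498.779, so the deposited intensities were already on a common level, and the series table held identical values (largest difference 0). Chip type and cRNA come from the instrument records.

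Arrays were brought to 1 trimmed mean. A single zero took its array's minimum among present probe sets, and log2 followed. Leaving out 64 control probe sets and those present on fewer than 2 arrays kept 12396. Groups and numbers were compared in separate fits with limma 3.58.1 under R 4.3.3 (lmFit, eBayes with an intensity trend, no further terms), with Benjamini-Hochberg adjustment over 12396. The script was checked on simulated data. Between mTert and control it called 2.7% of simulated log2 changes of 0.5 and 31.2% of those of 1. All 83 member probe sets matched RefSeq by gene identifier, and 1 with several symbols was left out. Promoter windows are RefSeq's (GRCm38.p6).

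The members and lists were chosen with earlier results of these data known. Signals are given for the Timp genes, the 3 tested genes of highest mean signal in each other family, members differing by at least 0.5, and the 5 smallest p of either comparison; a few present or absent members outside this rule were added after their values were seen. From other lists up to 3 genes of smallest p are named. Alternatives were the filter, scaling, log offset, variance trend, a term for number or group, 1 probe set per gene, and each array left out. The number of arrays limits the precision.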

Additional observations from a re-analysis of the deposited data

How the results depend on the processing

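With the number as a replicate block, 18 probe sets and 0 members were called between mTert and control, and Timp1 had a limma adjusted p of 0.577. What the numbers mark is not in the labels, so a pairing of the samples was not established. With 2 pairs, the correlation across 12396 probe sets of control 2 minus control 1 with mTert 2 minus mTert 1 was 0.37. The main fit between mTert and control had no term for the number, so differences by number entered its error. For Adam8 the SE of that comparison was 0.69 without the block and 0.18 with it. Between the numbers 347 probe sets were called with the group as a term, 80 without the variance trend, 94 without a filter and 119 among probe sets present on all 4 arrays, where 0 members were called because Adam8 was not tested. With 1 array left out the count was 80 to 204. Adam8 was called in each setting that tested it. Apart from the fit without a filter, these settings kept Adam8 only through its present calls on the arrays titled 2, so they share that selection. A fit without 1 array leaves a side with a single array, assumed to vary like the others. The median of the members between mTert and control was 0.078 with 1 probe set per gene and -0.023 to 0.070 with 1 array left out. Between the numbers it was -0.043 without a filter, 0.035 with 1 probe set per gene and -0.061 to 0.011 with 1 array left out.

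Quantile normalization turned the sign of 6 small differences, to 0.0076 (Timp3), 0.0012 (Timp2) and 0.011 (Mmp14) for mTert, and to 0.0035 (Timp3), 0.0045 (Timp3) and -0.00092 (Timp2) for the number. The deposited scaling gave 9.8e-05 for Timp2 between numbers. The causes were not tested. Leaving out 1 array turned the sign in 49 of 216 values, all of them of uncalled differences. Genes with several probe sets appear once for each. For mTert minus control these ranged from -0.10 to 0.29 for Timp3, -0.057 to 0.048 for Timp3, -0.059 to 0.07 for Timp3, -0.093 to 0.044 for Timp2, -0.069 to 0.07 for Timp2, -0.051 to 0.000797 for Timp2, -0.041 to 0.12 for Mmp2 and -0.064 to 0.033 for Mmp14. They also ranged from -0.49 to 0.20 for Mmp23, -0.15 to 0.10 for Adam9, -0.34 to 0.076 for Adamts1, -0.17 to 0.18 for Adamts5, -0.0904 to 0.31 for Adamts10, -0.66 to 1.06 for Adam8, -0.38 to 0.33 for Adam19, -0.25 to 0.54 for Mmp3 and -0.17 to 0.078 for Mmp14. Between the numbers they ranged from -0.38 to 0.19 for Timp1, -0.13 to 0.13 for Timp3, -0.071 to 0.056 for Timp3, -0.027 to 0.026 for Timp2, -0.13 to 0.51 for Timp4, -0.000599 to 0.051 for Timp2 and -0.045 to 0.12 for Mmp2. The others ranged from -0.55 to 0.031 for Mmp23, -0.18 to 0.0096 for Adam9, -0.27 to 0.031 for Adam10, -0.12 to 0.20 for Adamts5, -0.23 to 0.23 for Adamts4, -0.20 to 0.0073 for Adamts5 and -0.0063 to 0.62 for Mmp19.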
